A study of Mus musculus with 6 samples.

Results

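The expression of all named genes was compared between mouse bone marrow cells that carried the oncogene BCR-ABL together with the kinase gene Blk and cells that carried BCR-ABL alone. The comparison took every array labelled BCR-ABL-Blk expressing LSC (2 samples) and every array labelled BCR-ABL expressing LSC (2 samples), so 4 of the 6 samples of the series. The other 2 samples carried the GFP vector alone and are given as a reference level. In all groups, donor C57BL/6 (B6) mice with the genotype WT had been given 5-fluorouracil, their marrow was infected with retrovirus, and B6 recipients received the cells. The retrovirus carried GFP alone in the vector group, BCR-ABL-GFP in the BCR-ABL group and BCR-ABL-Blk-GFP in the BCR-ABL-Blk group, and the labels give an age of 8 weeks. At 14 days after transplantation, marrow cells were sorted that lacked lineage markers and carried GFP, Sca-1 and c-Kit. The labels call these cells LSCs (leukemic stem cells) in both oncogene groups. The BCR-ABL-Blk cells thus differ from the BCR-ABL cells by the Blk part of the virus, while GFP, the 5-fluorouracil treatment, the transplantation and the sort are shared. The labels name no viral promoter, no species or form of the added Blk, and no number of mice behind a sample.

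A fusion of the genes Bcr and Abl1 gives BCR-ABL, a tyrosine kinase that is always switched on and drives chronic myeloid leukemia (CML). It signals through STAT5, the Ras-ERK cascade and PI3 kinase, and in mice it turns infected marrow into a disease with an excess of neutrophils. Blk (B lymphoid kinase) is a Src family tyrosine kinase known mainly from B cells, where it acts below the B cell receptor. Lineage-negative, Sca-1-positive, c-Kit-positive cells (LSK cells) contain the blood stem cells and multipotent progenitors. The question put to these samples, as known of the study, is what Blk does as a brake on leukemic stem cells, with Pax5 and Ebf1 placed above Blk and Myc and the CDK inhibitor p27 (Cdkn1b) around it.

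Each sample was read on 1 whole-transcript array, and all levels below are log2 signals after quantile normalization, so that 1 unit is a 2-fold step. A difference is always the mean of BCR-ABL-Blk minus the mean of BCR-ABL, with its standard error (SE). P-values are from limma and are called unadjusted where they stand alone. Since 2 arrays stood against 2, the number of arrays limits the precision, and the median SE over 19938 genes was 0.129. The oncogene arrays were alike as a whole, with correlations over genes of 0.994 between the BCR-ABL replicates and 0.992 between the BCR-ABL-Blk replicates. BCR-ABL-Blk replicate 1 correlated with BCR-ABL replicate 1 at 0.995, above its value with its own replicate 2. BCR-ABL-Blk replicate 2 stood apart from the other arrays. On the first principal component of the 4 oncogene arrays, which held 46.9% of the variance, it lay at 23.3, and the other 3 arrays lay between -11.4 and -3.60.

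No unsorted sample stood beside the sorted cells, so the levels of genes tied to the sort do not test the gate. Kit, which encodes the c-Kit receptor used in the sort, read 10.43 and 10.43 with BCR-ABL and 10.74 and 10.33 with Blk. Cd34, a surface protein of stem and progenitor cells, read 11.69 and 11.85 with BCR-ABL and 11.97 and 11.87 with Blk. The gene of Sca-1, Ly6a, had no probe set of a single symbol and was not measured. Of genes that mark mature lineages, Cd3e of T cells read 7.64 and 7.501 with BCR-ABL and 7.46 and 7.38 with Blk, and Itgam of myeloid cells read 7.16 and 7.495 against 7.24 and 7.11. These readings lie around the median level of all named genes, 7.498, which is no background level. Other genes of maturing lineages read higher on the same arrays, such as S100a9 at 11.66 and 11.98, Car1 at 10.64 and 10.81 and Vpreb1 at 10.24 and 10.49 with BCR-ABL. Kit, Cd3e and Itgam were chosen here for their place in the sort.

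Blk itself read higher in both arrays that carried it than in the BCR-ABL arrays. On every array it lay below the median level of all named genes, 7.498. The level of Blk was 6.54 and 6.60 in the BCR-ABL arrays, 6.95 and 7.005 in the BCR-ABL-Blk arrays, and 7.14 and 6.95 in the vector arrays. The pair of readings with Blk lay above the pair with BCR-ABL alone and between or at the vector readings. The difference was 0.41 ± 0.11 (SE), a 1.33-fold step with a 95% interval from 0.15 to 0.66 on the log2 scale. Its unadjusted p was 0.00634, and its adjusted p over all genes was 0.999 (limma), so the added gene did not pass the test. Whether the probe set reads the added Blk as well as the cells' own was not tested, and the labels do not say which form was added. A value as small as this therefore checks the labels only weakly.

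The transcription factors named above Blk did not separate the groups. Pax5, which sets the identity of B cells, read 7.04 and 7.71 with BCR-ABL and 7.49 and 7.06 with Blk, a difference of -0.10 ± 0.48. Ebf1, its partner in early B cells, read 6.41 and 7.74 against 7.45 and 6.16, a difference of -0.27 ± 0.73. The replicates of each group lay far apart for both factors, and the groups overlapped. The vector arrays read higher, at 9.56 and 7.95 for Pax5 and 10.74 and 8.68 for Ebf1.

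Myc, a driver of growth and of the cell cycle, read 12.13 and 12.19 with BCR-ABL and 12.07 and 12.10 with Blk. Both Blk arrays lay below both BCR-ABL arrays, by a difference of -0.07 ± 0.06 that did not pass the test and was 0.07 in the deposited values. Cdkn1b, which encodes p27, read 10.39 and 10.16 against 10.39 and 10.07, a difference of -0.04 ± 0.19, and its arrays overlapped. A second probe set of Cdkn1b read 8.85 and 9.15 with BCR-ABL and 9.49 and 9.22 with Blk. On it both Blk arrays lay above, by a difference of 0.35, so the probe sets of this gene disagree. The mouse genes of the fusion partners both read slightly higher with Blk. Abl1 read 9.55 and 9.69 against 9.95 and 9.73 (0.21 ± 0.16), and Bcr read 9.20 and 9.07 against 9.26 and 9.34 (0.16 ± 0.14). Neither passed the test, and whether these probe sets read the fusion transcript was not tested.

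**Figure D1:**
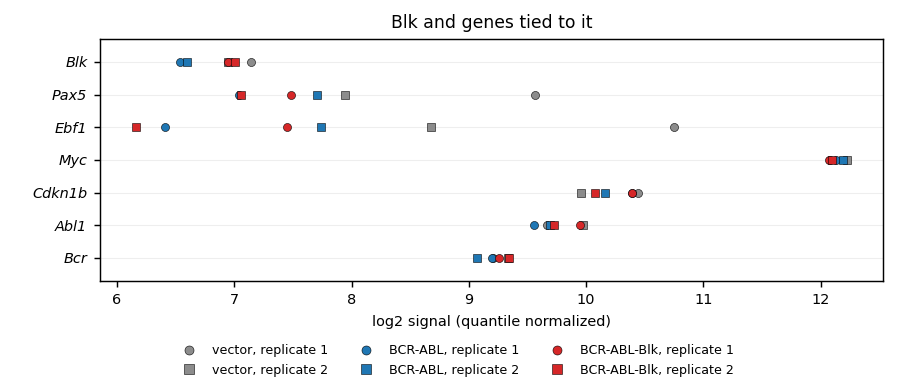
Log2 signal (x axis, quantile normalized) of Blk, of the genes placed around it and of the fusion partners Abl1 and Bcr on each of the 6 arrays, 1 point per array. Both BCR-ABL-Blk points of Blk (6.95 and 7.005) lie to the right of both BCR-ABL points (6.54 and 6.60), while the points of Ebf1 and Pax5 are spread and overlap.

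Across all genes, no difference passed the test. At an adjusted p under 0.05 (limma, Benjamini-Hochberg over 19938 genes), 0 genes were higher and 0 were lower with Blk, which is 0% either way, and the smallest adjusted p was 0.999. At an unadjusted p under 0.05, 293 genes (1.47%) were higher and 497 (2.49%) were lower. These 790 genes (3.96%) are fewer than the 997 that this threshold passes by chance alone. The groups were separated, with both arrays of one beyond both of the other, for 2788 genes (14%) with the Blk arrays above and for 3985 genes (20%) with them below, 6773 genes (34%) in all. In all, 45.6% of genes had a difference above 0 and 54.3% below, around a median of -0.01. In the deposited values without further normalization the median difference was 0.26, the unadjusted counts were 1650 higher and 64 lower, and 66 genes higher and 13 lower passed at an adjusted p (limma). With each array only centred on its median, the unadjusted counts were 169 higher and 469 lower. The balance between directions therefore depended on the scaling, and lists are given below beside the median of all genes. An exact permutation test of 2 arrays against 2 cannot give a two-sided p below 0.333. Every unadjusted p below is thus a rank within these arrays and no call.

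The few large differences were mostly lower with Blk. A difference of at least 2-fold was reached by 20 genes (0.1%) in the lower direction and by 5 (0.0251%) in the higher one. At 1.5-fold, 131 genes (0.657%) were lower and 64 (0.321%) higher. In 19 of the 20 genes that were at least 2-fold lower, BCR-ABL-Blk replicate 2 read below replicate 1. Their median gap to the BCR-ABL mean was -0.73 in BCR-ABL-Blk replicate 1 and -1.54 in replicate 2. For 18 of them, both Blk arrays still lay below both BCR-ABL arrays.

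**Figure D2:**
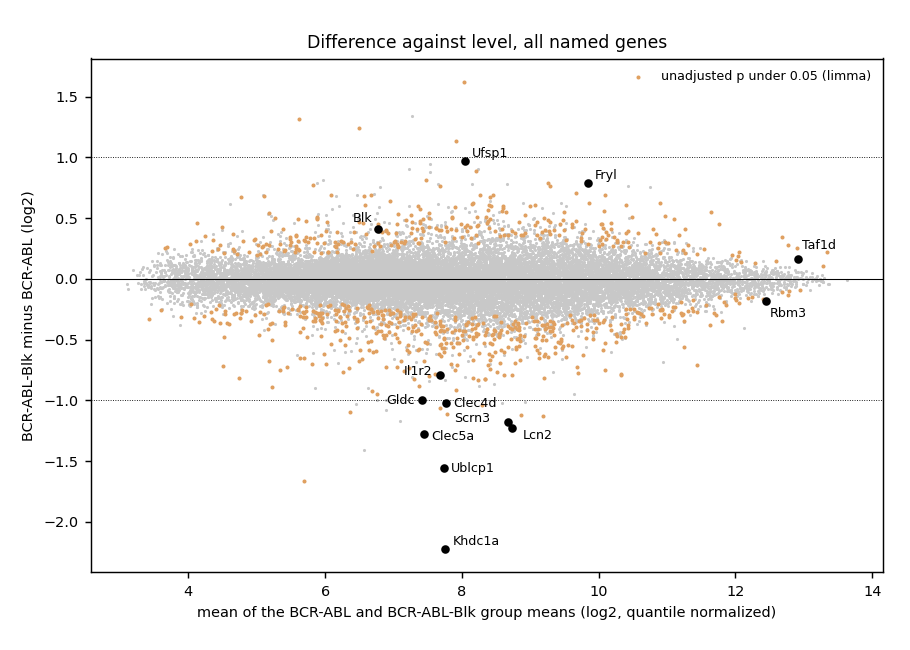
Difference between BCR-ABL-Blk and BCR-ABL (y axis, log2) against the mean of both group means (x axis, log2) for 19938 genes. Grey and orange points are genes, orange marks an unadjusted p under 0.05, black points are named, dotted lines mark a 2-fold step, and Khdc1a at -2.22 lies lowest.

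Among the genes lower with Blk, several read high in the BCR-ABL arrays against the vector arrays. Khdc1a, a KH domain protein known from eggs and early embryos, read 9.09 and 8.64 with BCR-ABL and 7.34 and 5.95 with Blk, while the vector arrays read 5.31 and 5.29. The Blk arrays lay between the others and far apart from each other (SD 0.98). The difference was -2.22 ± 0.39, a 4.66-fold step and the largest of all named genes, at an unadjusted p of 0.000621. Its SE also draws on the vector arrays (SD 0.01), which lay far closer together than the BCR-ABL arrays (SD 0.32) or the Blk arrays. Gldc, the glycine decarboxylase of the glycine cleavage system, read 8.15 and 7.69 with BCR-ABL, 7.06 and 6.78 with Blk, and 6.48 and 6.50 with vector. Its difference of -0.998 ± 0.17 was close to a 2-fold step, and its vector arrays were close too (SD 0.01, against 0.33 with BCR-ABL and 0.20 with Blk). Ddah1, which breaks down methylated arginines, read 7.71 and 7.34 with BCR-ABL, 6.87 and 6.67 with Blk, and 6.46 and 6.55 with vector, a difference of -0.76 ± 0.15. For Khdc1a, Gldc and Ddah1, both BCR-ABL arrays were highest and both vector arrays lowest. The BCR-ABL arrays enter both sides of such a pattern, so the place between the groups was not tested.

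The genes named by the rule also held some receptors and a cytokine. Il1r2, the decoy receptor of interleukin 1, read 8.13 and 8.01 with BCR-ABL and 7.17 and 7.39 with Blk, against 6.90 and 6.69 with vector. The groups did not overlap, and the difference was -0.79 ± 0.14, at an unadjusted p of 0.000513, the smallest of the genes the naming rule gave. Il4, a type 2 cytokine made by basophils and mast cells, read 7.68 and 7.89 against 7.02 and 7.19, with vector at 6.91 and 6.85, a difference of -0.68 ± 0.13. Tnfrsf9, the costimulatory receptor 4-1BB, read 7.95 and 8.08 against 7.55 and 7.21, a difference of -0.64 ± 0.15. Clec4d, a C-type lectin of myeloid cells, read 8.32 and 8.24 with BCR-ABL and 7.52 and 7.005 with Blk, with vector at 7.47 and 7.28. Its Blk arrays reached the vector level or below it, and the difference was -1.02 ± 0.18. Clec5a, another myeloid lectin, read 8.18 and 8.00 against 7.25 and 6.37, a difference of -1.28 ± 0.34, with vector at 8.20 and 9.04.

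Other genes lay below both reference groups. Slc40a1, the iron exporter ferroportin, read 7.54 and 7.65 with BCR-ABL and 7.02 and 6.71 with Blk, against 8.27 and 8.24 with vector. Fgl2, a fibrinogen-like protein secreted by immune cells, read 8.80 and 8.77 against 8.18 and 7.90, with vector at 9.21 and 9.38. Met, the receptor of hepatocyte growth factor, read 9.02 and 8.99 against 8.09 and 8.35, with vector at 8.62 and 8.98. In these 3 genes the Blk arrays were the lowest of the 6, by differences from BCR-ABL of -0.73 ± 0.14, -0.74 ± 0.15 and -0.79 ± 0.17. Tmem119 (-0.52 ± 0.12) and the cold-inducible RNA-binding protein gene Rbm3 (-0.18 ± 0.04) complete the 12 smallest p-values. Rbm3 was by far the smallest of these differences, with close replicates in each oncogene group (SD 0.01 in both). The largest differences with separated arrays also included Ublcp1, a phosphatase of the proteasome, at 8.49 and 8.53 against 7.64 and 6.27 (-1.56 ± 0.46). Scrn3 read 9.08 and 9.44 against 8.71 and 7.47 (-1.17 ± 0.43), and the long noncoding RNA gene Mirt2 read 6.61 and 8.75 against 6.57 and 6.44 (-1.17 ± 0.57). Mirt2 stood high in BCR-ABL replicate 2 alone.

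The genes higher with Blk were smaller in size and mixed in function. Ufsp1, a protease that matures the ubiquitin-like protein UFM1, read 7.67 and 7.44 with BCR-ABL and 8.33 and 8.72 with Blk, with vector at 7.78 and 8.26. The groups did not overlap, and the difference of 0.97 ± 0.21 was a 1.96-fold step at an unadjusted p of 0.00199. Rab1b, a GTPase of transport from the endoplasmic reticulum to the Golgi, read 8.73 and 9.01 against 9.65 and 9.67, a difference of 0.79 ± 0.17. Gnrh1, the gene of gonadotropin-releasing hormone, read 7.94 and 7.57 against 8.63 and 8.66, a difference of 0.89 ± 0.21. In each of these genes both Blk arrays lay at or above the vector arrays as well. Arhgef5, a guanine nucleotide exchange factor, read 8.74 and 8.64 against 9.26 and 9.32, a difference of 0.60 ± 0.14, and vector read 8.31 and 8.18. Rfc5, a subunit of the clamp loader of DNA replication, read 10.44 and 10.31 against 10.77 and 10.75, a difference of 0.38 ± 0.10.

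Zfp948, a zinc finger gene, differed by 0.76 ± 0.19, Jmjd8 by 0.61 ± 0.15 and the lysosomal peptidase gene Dpp7 by 0.63 ± 0.16. Them4 read 7.19 and 6.93 against 7.55 and 8.21 (0.81 ± 0.23). The neuronal tubulin gene Tubb3 read 7.76 and 7.79 against 8.26 and 9.12, a difference of 0.91, with an SE of 1.00 because the vector arrays stood at 10.24 and 6.51. For several genes the result hung on the probe set. Fryl, a homolog of the fly gene furry, differed by 0.79 on the probe set used and by 0.10 and 0.26 on the others. Tmem229b differed by 0.69 and, on its other probe set, by -0.03. Gpatch8 differed by 0.56 on the probe set used, and its others gave 0.04 to 0.42. By contrast, the probe sets of Arhgef5 gave 0.60 and 0.46, both higher with separated arrays. Taf1d (0.17 ± 0.04) also hosts small nucleolar RNAs and has 9 probe sets that disagree.

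**Figure D3:**
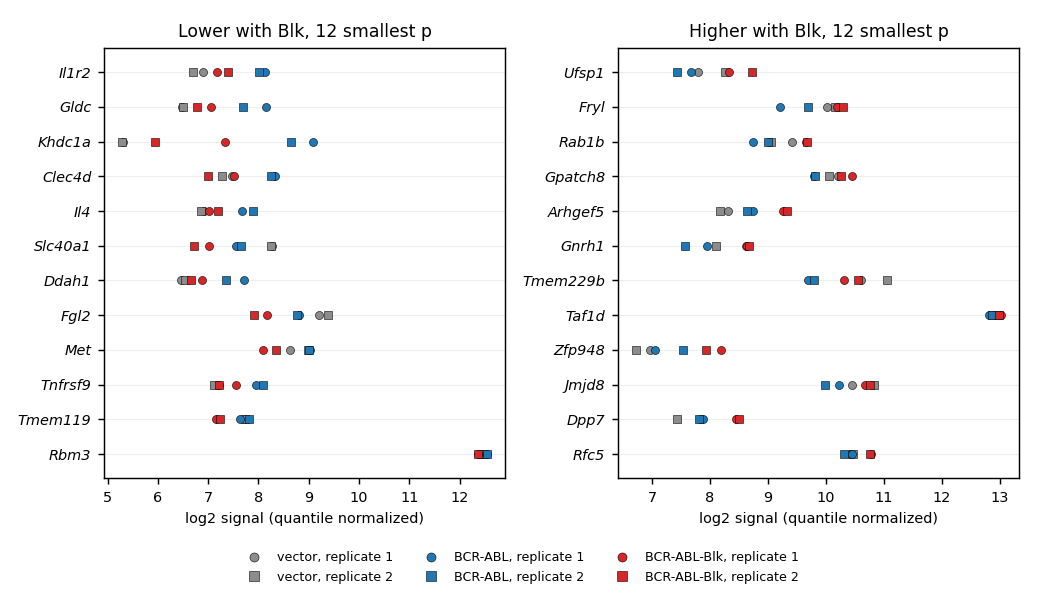
Log2 signal (x axis, quantile normalized) on the 6 arrays, 1 point per array, for the 12 genes lower and the 12 genes higher with Blk that had the smallest unadjusted p under the naming rule. In both panels the red BCR-ABL-Blk points lie to one side of the blue BCR-ABL points by construction of the rule, and Khdc1a has the widest gap (-2.22).

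Small RNA probe sets stood at the top of the ranking by p, although the naming rule skipped them, so they were chosen after their values were seen. The mature miRNA sequences from RefSeq (GRCm38.p6) show which molecules these genes encode, with the seed, bases 2 to 8, in capitals. The array reads the gene and does not tell which arm was present.
mmu-miR-186-5p: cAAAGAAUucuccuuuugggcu
mmu-miR-186-3p: gCCCUAAGgugaauuuuuuggg
mmu-miR-302b-5p: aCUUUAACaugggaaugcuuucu
mmu-miR-302c-5p: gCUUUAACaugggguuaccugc
mmu-miR-302b-3p: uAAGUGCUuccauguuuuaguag
mmu-miR-302c-3p: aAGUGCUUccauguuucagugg
mmu-miR-181b-5p: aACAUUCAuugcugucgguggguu
The 5p arms of the 302 pair share the seed CUUUAAC. Their 3p seeds differ by a shift of 1 base, and the other seeds are unlike each other.

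Mir186 had the smallest unadjusted p of all genes, 0.000116. It read 5.23 and 4.70 with BCR-ABL, 6.19 and 6.38 with Blk, and 5.75 and 5.52 with vector, a difference of 1.31 ± 0.18 with an adjusted p of 0.999 (limma). Zranb2, the gene that spans Mir186, differed by only 0.14 ± 0.09. Mir302b and Mir302c, neighbours in 1 cluster known from embryonic stem cells, both read lower with Blk. Mir302b read 4.90 and 4.83 against 4.19 and 4.11 (-0.72 ± 0.12), and Mir302c read 5.25 and 5.28 against 4.80 and 4.81 (-0.46 ± 0.10). These levels lie low on the array's scale. Larp7, which spans both, differed by -0.09, and Gm51018, which spans both too, was not measured. Mir181b-2, of a family with a part in lymphoid development, read 6.90 and 7.39 against 6.34 and 6.10 (-0.93 ± 0.20). Nr6a1 around it differed by 0.06, and Nr6a1os, also around it, was not measured. The spanning genes were matched by position and not by strand, so they need not be the transcripts that carry the miRNAs.

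Small nucleolar RNA genes, which guide the modification of ribosomal RNA, stood among the large differences in both directions. Snord42b was among the genes at least 2-fold lower, at 6.82 and 7.11 with BCR-ABL and 6.39 and 5.47 with Blk (-1.03 ± 0.60). Snora3 read 10.85 and 10.86 with BCR-ABL and 11.36 and 11.33 with Blk, a difference of 0.49 ± 0.08, the second smallest p. Snord37 read 6.27 and 5.47 against 6.998 and 7.235, a difference of 1.25 ± 0.25. Their host genes Rpl27a and Eef2 differed by 0.01 and 0.06. The 5 genes at least 2-fold higher were Mir186, Snord37, Snord49a (1.14 ± 0.47) and a pair of kappa light chain segments of antibody genes (1.62 ± 0.37 and 1.34 ± 0.70). None of the 5 was a gene that the naming rule allows. The second of these segments stood high in BCR-ABL-Blk replicate 1 alone, at 9.26 against 6.53 to 6.66 in the BCR-ABL arrays and 6.62 in the other Blk array.

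Genes of neutrophil granules made up the list with the lowest median. These proteins are made in steps as granulocytes mature, with the enzymes of the primary granules first and lactoferrin, lipocalin and S100 proteins later. Of 19 measured genes, 18 had a difference below 0 and 1 above, with a median of -0.38 against -0.01 over all genes. Both Blk arrays lay below both BCR-ABL arrays for 12 of the 19 and above for 0, beside 20% and 14% of all genes. An unadjusted p under 0.05 was reached by 6 of 19 in the lower direction and by 0 in the higher, beside 2.49% and 1.47% of all genes. None passed at an adjusted p (limma). In bulk samples, fewer cells of a type and less RNA per cell cannot be told apart.

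Lcn2, the lipocalin that binds bacterial iron carriers, read 9.08 and 9.60 with BCR-ABL and 8.32 and 7.90 with Blk, with vector at 8.95 and 9.69. The Blk arrays were the lowest of the 6, by a difference of -1.23 ± 0.29. Camp, the cathelicidin gene, read 9.15 and 10.08 against 9.02 and 8.58 (-0.81 ± 0.29). S100a8 and S100a9 encode the subunits of calprotectin. S100a8 read 11.41 and 11.63 against 11.12 and 10.80 (-0.56 ± 0.16), and S100a9 read 11.66 and 11.98 against 11.58 and 11.30 (-0.38 ± 0.14). Chil3, a chitinase-like protein gene, read 8.29 and 9.33 against 8.25 and 7.30 (-1.04 ± 0.40). In all of these, BCR-ABL-Blk replicate 2 read lowest. For Camp, S100a9 and Chil3, the first replicates of both groups lay close together.

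The genes of early primary granules showed differences of unequal size. Elastase (Elane) differed by -0.60, proteinase 3 (Prtn3) by -0.44 and cathepsin G (Ctsg) by -0.40, while myeloperoxidase (Mpo) differed by -0.08. Ms4a3, a marker of granulocyte and monocyte progenitors, differed by -0.71, and Cebpe, a factor that drives late granule genes, by -0.55. Ltf (-0.16), Ngp (-0.19), Mmp8 (-0.15), Mmp9 (-0.16) and the growth factor receptor gene Csf3r (-0.09) were close to level. Ly6g, the surface marker of mature neutrophils, read 6.71 and 7.06 against 6.28 and 7.91, a difference of 0.21 ± 0.74, and it was the only member above 0. The median level of the list was 9.08 and 9.60 on the BCR-ABL arrays, 8.52 and 8.49 on the Blk arrays, and 8.95 and 9.69 on the vector arrays. Taken relative to the median of all genes, the list stood at -0.36, at -0.18 without BCR-ABL replicate 2 and at -0.22 without BCR-ABL-Blk replicate 2. Its direction held in both, and its size rested on these arrays. The part that a different content of granulocytic cells in the sort plays was not tested.

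**Figure D4:**
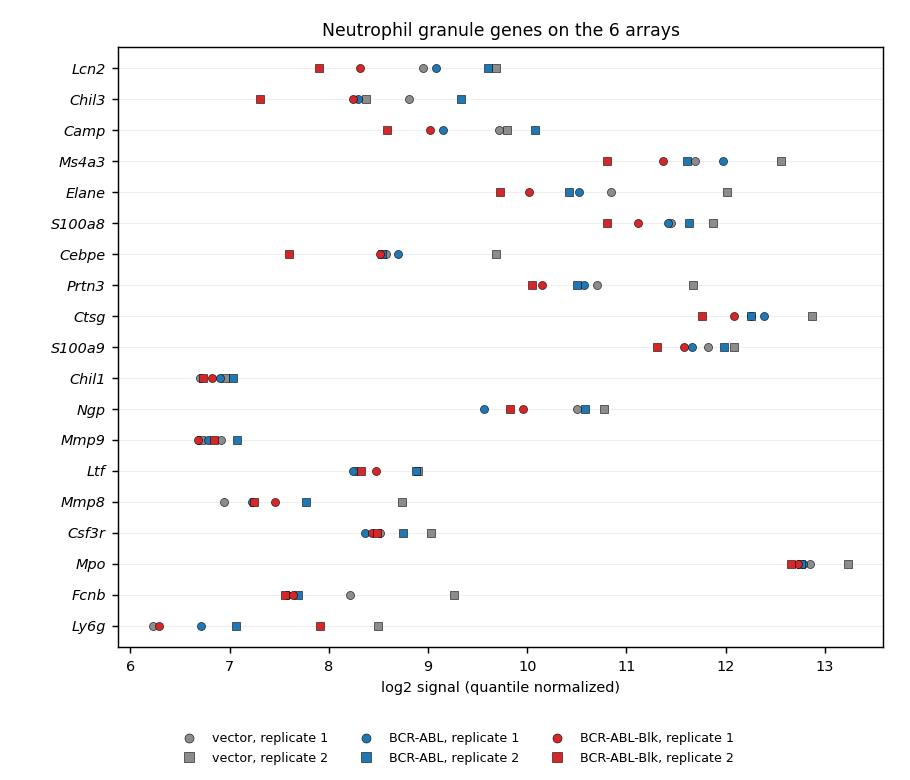
Log2 signal (x axis, quantile normalized) of the 19 measured neutrophil granule genes on each of the 6 arrays, 1 point per array, ordered from the most negative difference (Lcn2, -1.23) to the only positive one (Ly6g, 0.21). The red BCR-ABL-Blk points lie left of the blue BCR-ABL points for 12 of the 19 genes.

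The promoters of these genes are shown for 3 members, since granule genes are known targets of C/EBP factors. The letters TTGCNNAA, a form of the C/EBP site, were searched on both strands (TTNNGCAA on the other) in the 250 bases before each start in RefSeq (GRCm38.p6). Capitals mark a match.
Lcn2 (chr2:32387740-32387989, minus strand): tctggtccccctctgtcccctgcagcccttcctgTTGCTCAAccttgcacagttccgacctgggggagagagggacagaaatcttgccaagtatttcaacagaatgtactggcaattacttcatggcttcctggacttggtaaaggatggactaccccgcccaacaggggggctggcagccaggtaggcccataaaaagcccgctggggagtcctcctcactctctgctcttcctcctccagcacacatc
S100a9 (chr3:90695722-90695971, minus strand): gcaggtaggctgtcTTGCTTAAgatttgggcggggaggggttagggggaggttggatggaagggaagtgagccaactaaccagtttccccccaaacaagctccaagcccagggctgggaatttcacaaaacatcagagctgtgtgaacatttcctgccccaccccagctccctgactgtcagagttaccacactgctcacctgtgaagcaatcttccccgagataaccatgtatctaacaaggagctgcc
S100a8 (chr3:90668821-90669070, plus strand): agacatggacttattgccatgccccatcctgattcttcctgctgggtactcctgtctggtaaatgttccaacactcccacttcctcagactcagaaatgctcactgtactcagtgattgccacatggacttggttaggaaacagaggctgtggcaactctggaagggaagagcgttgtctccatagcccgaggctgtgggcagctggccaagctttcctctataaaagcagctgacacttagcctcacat
Lcn2 and S100a9 each hold 1 match and S100a8 holds none. The letters were found in 7 of 17 promoters of the list (41.2%), and in 2582 of 27025 promoters of all genes (9.55%). Of the 6 members with an unadjusted p under 0.05, 2 hold a match (Lcn2 and S100a9), and of the other members with an entry, 5 of 11 do. A match describes the sequence and is no measured binding site.

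Some further genes were at least 2-fold lower too, and are named here after their values were seen. Trem3, a myeloid receptor, read 10.01 and 9.49 with BCR-ABL and 8.90 and 8.32 with Blk (-1.13 ± 0.40). Ifitm6 read 7.26 and 7.60 against 7.05 and 5.66 (-1.08 ± 0.52), and Dhrs7, an oxidoreductase gene, read 9.58 and 9.26 against 8.73 and 7.88 (-1.12 ± 0.28). Il1f9, an interleukin 1 family cytokine, read 6.61 and 7.20 against 5.75 and 5.88 (-1.09 ± 0.19). The arrays of these genes did not overlap between the groups. Of 16 monocyte and macrophage genes, 7 were above 0 and 9 below, with a median of -0.05. An unadjusted p under 0.05 was reached by 2 of the 16, both lower, beside 2.49% of all genes. The median was 0.08 without BCR-ABL-Blk replicate 1 and -0.31 without BCR-ABL replicate 1. The 2 genes were the chemokine receptor gene Ccr2, at 9.33 and 9.71 against 8.95 and 8.83 (-0.63 ± 0.17), and Cd68, at 9.26 and 9.59 against 8.88 and 9.17 (-0.40 ± 0.17). F13a1 (-0.68 ± 0.35) and Ms4a6c (-0.29 ± 0.18) also lay lower with separated arrays. In the whole list, 4 of 16 had both Blk arrays below and 1 had them above, beside 20% and 14% of all genes. The highest difference in it was 0.47.

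Genes of mast cells, basophils and eosinophils stood below 0 in 19 of 22 members, with a median of -0.19. Only 5 of the 22 had separated arrays, all lower, which is near the 20% of all genes, and 2 reached an unadjusted p under 0.05 in that direction, beside 2.49%. Il4 is given above. Gzmb, a granule protease, read 10.39 and 10.55 with BCR-ABL, 10.26 and 9.19 with Blk, and 7.22 and 7.22 with vector, a difference of -0.75 ± 0.31. Hdc, which makes histamine, read 9.96 and 10.27 against 9.75 and 8.58 (-0.95 ± 0.42), and Cyp11a1 read 7.64 and 8.22 against 7.83 and 7.16 (-0.44 ± 0.29). In Gzmb, Hdc and Cyp11a1, BCR-ABL-Blk replicate 2 was low and replicate 1 stood near the BCR-ABL arrays. Without replicate 2 the median of the list was 0.06, and without replicate 1 it was -0.50. The list's direction therefore rested on 1 array.

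Erythroid genes were below 0 in 14 of 17 members, with a median of -0.13, and 10 of the 17 had both Blk arrays below, beside 20% of all genes. Klf1, the master factor of red cell genes, read 8.73 and 8.67 with BCR-ABL and 8.37 and 7.96 with Blk (-0.54 ± 0.17), with vector at 9.27 and 9.16. Car1, a carbonic anhydrase of early red cells, read 10.64 and 10.81 against 10.43 and 9.44 (-0.79 ± 0.32). Rhag, a red cell membrane protein, read 9.28 and 8.90 against 8.44 and 7.70 (-1.02 ± 0.55), and Ermap read 9.72 and 9.59 against 9.36 and 9.08 (-0.44 ± 0.21). In each the Blk arrays were below the BCR-ABL arrays, with replicate 2 lowest. Of the 17, only Klf1 and Car1 had an unadjusted p under 0.05, both lower, beside 2.49% of all genes. The regulator Gata1 differed by 0.05. Among 15 megakaryocyte and platelet genes, 11 were below 0 and 4 above (median -0.07). The platelet chemokine gene Ppbp read 7.23 and 7.26 against 6.77 and 6.28 (-0.72 ± 0.19), and Vwf, the gene of von Willebrand factor, read 8.06 and 8.12 against 8.37 and 8.41 (0.30 ± 0.12). Itgb3 differed by -0.19 ± 0.13 and Rab27b by 0.15 ± 0.12, so these genes were not of one direction.

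Stem cell genes of the LSK gate leaned the other way by a small amount. Of 30 measured genes, 20 were above 0 and 10 below, with a median of 0.11, and 11 had both Blk arrays above while 3 had both below, beside 14% and 20% of all genes. Tek, the angiopoietin receptor Tie2 of stem cells, read 7.04 and 7.07 with BCR-ABL and 7.32 and 7.99 with Blk, with vector at 6.45 and 6.37 (0.60 ± 0.20). Gfi1b, a repressor active in stem cells and megakaryocytes, read 9.20 and 9.21 against 9.49 and 9.81 (0.45 ± 0.17). These 2 of the 30 had an unadjusted p under 0.05, both higher, beside 1.47% of all genes. Hoxa5 read 7.69 and 7.73 against 8.23 and 8.02 (0.42 ± 0.19), Mecom differed by 0.43, Meis1 by 0.12 and Procr by 0.07. Slamf1, the stem cell marker CD150, differed by -0.22. When arrays were only centred on their medians, the list's median was -0.01, though it stayed above that of all genes by 0.03. Without BCR-ABL-Blk replicate 1 it was 0.045 under quantile normalization. Of 13 genes of multipotent and lymphoid-primed progenitors, 8 were above 0 and 5 below (median 0.07). Among them 0 reached an unadjusted p under 0.05, beside 3.96% of all genes.

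B cell genes, the usual setting of Blk, were mixed in direction. Of 23 measured genes, 14 were above 0 and 9 below, with a median of 0.06. In 6 of them both Blk arrays lay above and in 3 below, beside 14% and 20% of all genes. Relative to all genes, the median was 0.07, and 0.05 to 0.19 under other scalings or without 1 oncogene array. Vpreb1, a surrogate light chain of precursor B cells, read 10.24 and 10.49 with BCR-ABL and 11.41 and 10.84 with Blk, with vector at 12.63 and 11.57 (0.76 ± 0.33). Both Blk arrays lay between the other groups. Bank1, a B cell scaffold protein that binds Src family kinases, read 6.94 and 7.54 against 6.62 and 5.95 (-0.95 ± 0.25), opposite in direction. Ms4a1, the gene of CD20, read 5.54 and 5.63 against 5.30 and 5.38 (-0.24 ± 0.13). Only Blk, higher, and Bank1, lower, reached an unadjusted p under 0.05, beside 1.47% and 2.49% of all genes. Blk is the gene that the virus carried. Genes of MHC class II, which present antigen, were above 0 in 5 of 8 members with a median of 0.16. H2-DMa read 9.86 and 10.08 against 10.21 and 10.55 (0.41 ± 0.15), and H2-Aa 9.57 and 9.74 against 9.87 and 10.04 (0.29 ± 0.22). Cd74 (0.42 ± 0.28) and H2-Ab1 (0.16 ± 0.14) overlapped. Without BCR-ABL replicate 1 the median of the class II list was -0.04.

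Other Src family kinases and their partners were near level. Of 14 measured, 8 were above 0 and 6 below, with a median of 0.01. The one with an unadjusted p under 0.05 was Blk, higher, the gene that the virus carried, beside 1.47% of all genes. Fyn read 10.05 and 10.14 with BCR-ABL and 10.12 and 10.43 with Blk (0.18 ± 0.16). Csk, the kinase that switches Src family members off, read 9.76 and 9.83 against 9.86 and 10.04 (0.15 ± 0.13). Src differed by -0.14 ± 0.11.

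Lists of genes downstream of BCR-ABL had medians below 0. Of 18 STAT5 targets and cytokine feedback genes, 14 were below 0 and 4 above, with a median of -0.13. In 8 of the 18 both Blk arrays lay below, and 1 had them above, beside 20% and 14% of all genes. Id1, an inhibitor of differentiation factors, read 8.18 and 8.31 with BCR-ABL and 7.91 and 7.83 with Blk, with vector at 7.61 and 7.84 (-0.38 ± 0.14). Osm, the gene of oncostatin M and a known STAT5 target, read 7.80 and 8.16 against 7.60 and 7.54 (-0.41 ± 0.17). Bcl6, which STAT5 represses, read 6.86 and 7.18 against 6.86 and 6.48 (-0.35 ± 0.17), so it shared the direction of the others. Of 26 genes of ERK feedback and the immediate-early response, 17 were below 0 and 9 above (median -0.05), where 54.3% of all genes are below 0. Of the 26, 3 had an unadjusted p under 0.05, all lower, beside 2.49% of all genes. Phlda1 read 7.19 and 7.02 against 6.78 and 6.46 (-0.49 ± 0.13), the ERK inhibitor gene Spry2 8.03 and 8.33 against 7.81 and 7.57 (-0.48 ± 0.16), and Ier3 8.83 and 9.19 against 8.62 and 8.57 (-0.41 ± 0.17). In all 3 the arrays were separated, and in Spry2 both Blk arrays were near the vector readings of 7.79 and 7.67. Egr2 differed by -0.32 ± 0.16.

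Of 21 genes reported as regulators of leukemic stem cells, 9 were above 0 and 12 below (median -0.02). Alox5, the 5-lipoxygenase that CML stem cells need in this mouse model, read 9.39 and 9.66 with BCR-ABL and 9.07 and 9.12 with Blk, with vector at 7.97 and 8.12 (-0.43 ± 0.15). Hif1a, the oxygen-sensing factor, read 10.10 and 9.97 against 9.78 and 9.46 (-0.42 ± 0.15). Both had separated arrays. These 2 of the 21 had an unadjusted p under 0.05, both lower, beside 2.49% of all genes. In the whole list, 4 of 21 had both Blk arrays below and 1 had them above, near the 20% and 14% of all genes or under them. Cd93 read 10.66 and 10.66 against 10.78 and 10.96 (0.21 ± 0.10). Wnt and beta-catenin genes (19 measured) had a median of 0.01, and TGF-beta, Smad and FoxO genes (20 measured) one of -0.02. Both lists had 0 members at an unadjusted p under 0.05, beside 3.96% of all genes.

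Cell cycle genes gave no common direction. Of 22 CDK inhibitors, cyclins and E2F genes, 11 were above 0 and 11 below, with a median of 0.00. Cdkn2c, the gene of the CDK4/6 inhibitor p18, read 7.66 and 7.18 against 7.83 and 7.84 (0.42 ± 0.17). The pocket protein gene Rbl1 read 10.36 and 10.20 against 10.49 and 10.68 (0.31 ± 0.12), whereas its relative Rb1 read 9.50 and 9.49 against 9.30 and 9.10 (-0.30 ± 0.14). The p15 gene Cdkn2b read 7.29 and 7.37 against 7.18 and 6.86 (-0.31 ± 0.13). Of 26 genes of the G1/S step and DNA replication, 14 were above 0 and 12 below (median 0.01). Only Rrm2, lower, had an unadjusted p under 0.05, beside 2.49% of all genes in that direction. Rrm2 read 11.54 and 11.43 against 11.29 and 11.21 (-0.24 ± 0.08). Its partner in ribonucleotide reductase, Rrm1, differed by 0.14 ± 0.06, and Fen1 by -0.27 ± 0.13. G2/M and mitosis genes were above 0 in 20 of 28 members with a median of 0.06. That median relative to all genes turned to -0.02 when arrays were centred or left as deposited. In this list 0 members had an unadjusted p under 0.05, beside 3.96% of all genes. Myc targets stood at a median of -0.01 over 24 genes, with Pes1, of ribosome assembly, lowest (9.80 and 9.88 against 9.58 and 9.25, -0.42 ± 0.15).

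Death and p53 genes had medians near 0. Of 20 genes of the Bcl2 family and cell death, 15 were below 0 and 5 above, with a median of -0.05. Pmaip1, which encodes the killer protein Noxa, read 8.38 and 8.44 with BCR-ABL and 8.12 and 7.95 with Blk (-0.38 ± 0.13). The survival gene Mcl1 differed by -0.12 ± 0.11 and the apoptosome gene Apaf1 by -0.11 ± 0.15. Of 14 p53 targets, 6 were above 0 and 7 below (median -0.03). Perp read 8.34 and 8.34 against 7.94 and 7.79 (-0.47 ± 0.13), with vector at 7.35 and 7.22, and Sesn2 read 7.39 and 7.34 against 7.61 and 7.58 (0.23 ± 0.11).

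Stress and metabolic lists had small medians. In the list of the unfolded protein and integrated stress responses, 16 of 18 genes were below 0, with a median of -0.11, and 10 had both Blk arrays below, beside 20% of all genes. Trib3, a pseudokinase induced by ATF4, read 7.09 and 7.19 against 6.80 and 6.75 (-0.36 ± 0.11). Asns, the asparagine synthetase gene, read 10.66 and 10.33 against 9.92 and 10.17 (-0.45 ± 0.21), and Creld2 differed by -0.26 ± 0.13. Sesn2, also in this list, lay the other way with separated arrays (0.23 ± 0.11). Slc7a11, the cystine transporter and another ATF4 target, was outside the list and was picked for the tenth smallest p. Its level was below the median of all named genes. Slc7a11 read 6.82 and 6.91 against 6.36 and 6.06 (-0.66 ± 0.12). Among 14 genes of stress and cell dissociation, the metallothioneins, which bind zinc and other metals, were lowest. Mt1 read 10.81 and 10.62 against 10.28 and 9.60 (-0.78 ± 0.23), and Mt2 read 9.87 and 9.45 against 9.04 and 9.07 (-0.61 ± 0.21). The small heat shock gene Hspb1 read 7.74 and 8.05 against 7.37 and 7.64 (-0.39 ± 0.15). The median of this list was -0.08, with 5 genes above 0 and 9 below. It was 0.0025 without BCR-ABL-Blk replicate 2 and 0.0088 without BCR-ABL replicate 1, so its direction rested on single arrays.

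Of 19 genes of glycolysis and hypoxia, 12 were below 0 and 7 above (median -0.07), and 3 reached an unadjusted p under 0.05, all lower, beside 2.49% of all genes. Car9, a carbonic anhydrase and classic HIF target, read 8.02 and 7.88 with BCR-ABL and 7.47 and 7.34 with Blk, with vector at 7.78 and 7.63 (-0.55 ± 0.13). Bnip3, a HIF target of mitophagy, read 9.09 and 9.13 against 8.78 and 8.35 (-0.55 ± 0.19), and Ankrd37 read 8.39 and 8.22 against 7.96 and 8.00 (-0.32 ± 0.14). Pdk1, a HIF target as well, lay the other way, at 9.02 and 8.49 against 9.25 and 9.14 (0.44 ± 0.21), and Ldha differed by -0.11 ± 0.07. Respiratory chain genes were below 0 in 21 of 28 members with a median of only -0.04. The complex III genes Uqcrc2 (11.57 and 11.46 against 11.38 and 11.13) and Uqcrfs1 (11.06 and 10.99 against 10.87 and 10.67) differed by -0.27 ± 0.10 and -0.26 ± 0.10. Of 18 genes of cholesterol and fatty acid synthesis, 9 were above 0 and 9 below. The desaturase gene Scd2 read 9.88 and 10.02 against 10.45 and 10.38 (0.46 ± 0.16), Acaca differed by 0.26 ± 0.13 and Msmo1 by -0.31 ± 0.15. Cytosolic ribosomal protein genes differed little, between -0.09 and 0.10 over 23 genes.

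Genes of adhesion and homing were below 0 in 14 of 20 members (median -0.06), with 9 separated downward, beside 20% of all genes. Ccr1, a chemokine receptor of myeloid cells, read 5.25 and 6.08 against 4.84 and 4.71 (-0.89 ± 0.23). Jam3, a junction protein of stem cells, read 7.22 and 7.26 against 6.98 and 6.71 (-0.40 ± 0.13), and Itgb2, the integrin chain of leukocytes, 8.42 and 8.72 against 8.13 and 8.27 (-0.37 ± 0.17). Itga5, a fibronectin receptor chain, lay higher, at 8.13 and 8.21 against 8.29 and 8.65 (0.30 ± 0.16). In the list of stromal and endothelial genes, 5 of 16 were above 0 and 11 below (median -0.04), with differences from -0.48 to 0.46. Both Blk arrays lay below in 6 of the 16 and above in 1, beside 20% and 14% of all genes. Only Sparc and Fabp4 had an unadjusted p under 0.05, both lower, beside 2.49% of all genes. Whether the sorted cells themselves express the listed genes was not tested. Sparc read 8.29 and 8.37 against 7.97 and 7.94 (-0.37 ± 0.12) and Fabp4 7.11 and 7.47 against 6.76 and 6.86 (-0.48 ± 0.18), while Kdr differed by 0.19 ± 0.12 and Cxcl12 by -0.21 ± 0.10. Lists of T and NK cells (20 measured, median 0.00) and dendritic cells (16, median 0.01) had 0 members at an unadjusted p under 0.05. The same held for interferon response (19, median 0.01), MHC class I (7, median 0.04) and Akr1c enzymes (9, median -0.05). It also held for retroviral and imprinted growth genes (10, median -0.02) and sex-linked genes (4, median -0.07). Among all genes the share at that threshold was 3.96%. Relative to the median of all genes, the lists of Src family kinases, CDK inhibitors, Myc targets, G1/S, G2/M, TGF-beta and retroviral and imprinted growth genes turned sign when arrays were centred. The neutrophil list stood at -0.49 then, and the LSK stem cell list at 0.03.

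**Figure D5:**
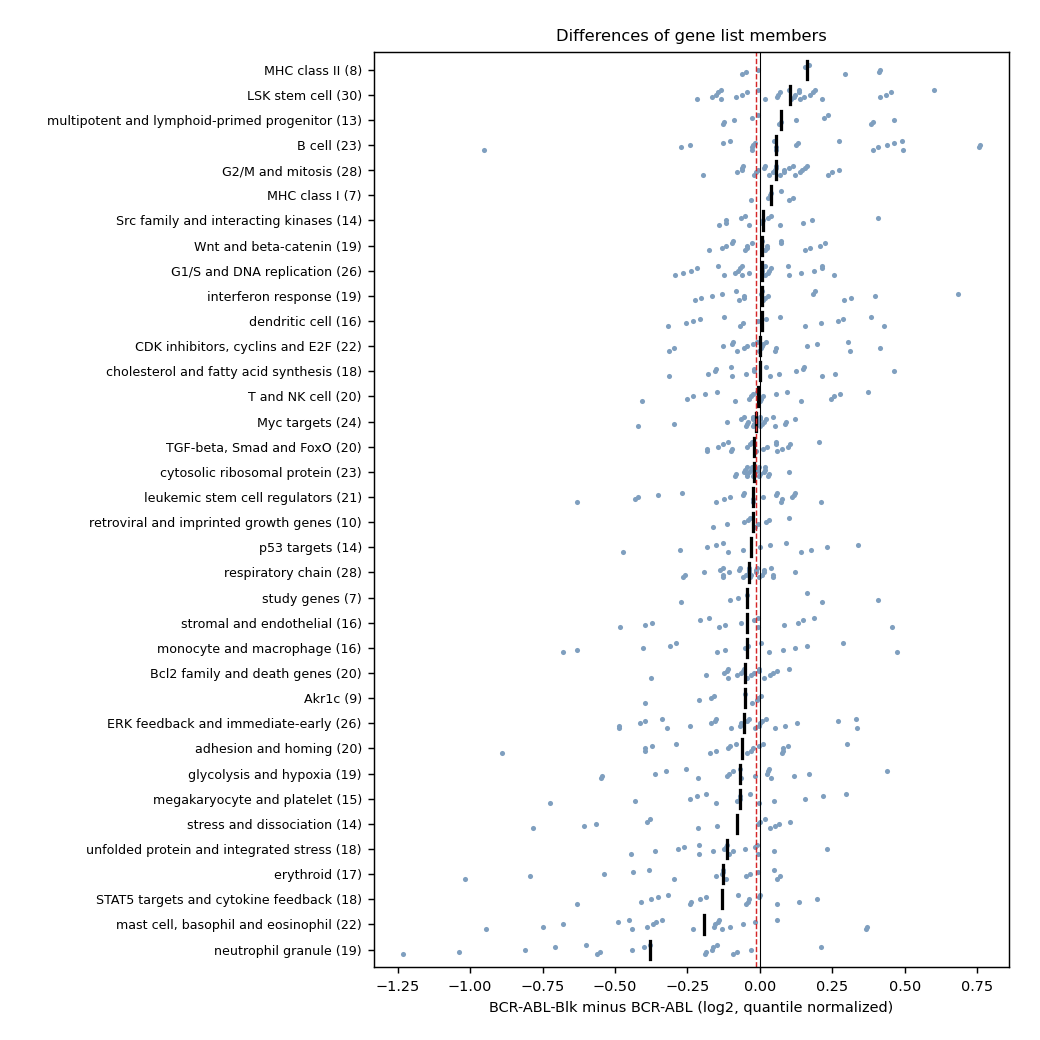
Difference between BCR-ABL-Blk and BCR-ABL (x axis, log2) for each measured member of 36 gene lists, 1 point per gene, with the number measured in brackets, black bars for list medians and a red dashed line for the median of all genes (-0.01). The neutrophil granule list has the lowest median (-0.38) and MHC class II the highest (0.16); the signs of the medians of LSK stem cell, G2/M and class II genes depended on the scaling or on 1 array.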

How the data were processed

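Total RNA of sorted cells was hybridised to Affymetrix whole-transcript arrays, 1 array per sample, with groups and replicate numbers taken from the sample titles. The deposited values are log2 signals for 35557 probe sets, made with Affymetrix Expression Console 1.1 and RMA, per the submitters' processing notes; the options and the build stand in none of the sources used here. RMA usually gives all arrays 1 distribution, but the deposited medians ran from 7.01 to 7.52, so the 6 arrays were quantile normalized (limma 3.58.1, R 4.3.3) over all probe sets. This removes any true shift of a whole group. Signal over background was not measured, so differences of dim genes may be understated.

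The platform annotation listed 23410 of the 35557 probe sets, 21789 of them with 1 gene symbol and 1621 with several; the other 12147 are unnamed here; 21698 of those with 1 symbol matched RefSeq by Entrez ID and 0 symbols differed. Where a gene had several probe sets (999 genes), that of highest mean was taken, giving 19938 genes, with no filter on level.

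Differences were fitted with limma (lmFit, eBayes with intensity trend) over all 6 arrays in 3 groups, without a block, on 3 residual degrees of freedom plus a prior of 4.40. P-values are two-sided, adjusted by Benjamini-Hochberg over 19938 genes and called below 0.05. The titles call the samples biological replicates; nothing says which animals they came from, so p-values measure only the spread between these samples. The fit was tested on simulated data before use. Alternatives changed the normalization, the arrays fitted, the prior, array weights, the choice of probe set, the features tested, a level filter, the replicate block and each array in turn.

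Always named were Blk with Abl1, Bcr, Cdkn1b, Myc, Ebf1 and Pax5. Each way, the 12 genes with the smallest p and the 6 with the largest difference followed, among genes with separated arrays whose higher group mean exceeded the median level, 7.498; small RNAs, clones, predicted genes, chemosensory receptors and antigen receptor segments were skipped. Last, from each list, came its smallest p-values (up to 4 members), where the list held a member with separated arrays and an unadjusted p under 0.05. Other genes named were chosen after their values were seen. The comparison and the 37 lists (739 entries, 663 measured) were chosen with earlier results of these data known, so no list is independent evidence, and no list was tested. Promoter and miRNA sequences are RefSeq's (GRCm38.p6). Figures used matplotlib 3.10.9, numpy 2.4.6 and pandas 2.3.3 in Python 3.11.15.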

Additional observations from a re-analysis of the deposited data

Results flagged for a closer look

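Differences of at least 2-fold were more frequent among probe sets outside the gene-level analysis. Of 13768 probe sets with no or several gene symbols, 345 (2.51%) were at least 2-fold higher with Blk and 219 (1.59%) at least 2-fold lower, against 11 (0.0505%) and 24 (0.110%) of the 21789 probe sets with 1 symbol. Probe set 10338686 read 6.25 and 6.06 with BCR-ABL, 8.76 and 10.015 with Blk, and 7.31 and 8.22 with vector, a difference of 3.24. Probe set 10341537 read 6.43 and 5.18, 8.44 and 8.79, and 7.64 and 8.45, a difference of 2.81. Both were singled out after their values were seen, for the largest differences in the higher direction among such probe sets with separated arrays. Neither passed the test over all probe sets (adjusted p 0.999 for both, limma). For 10341537, the Blk arrays overlapped the vector arrays (8.44 against 8.45). What these probe sets read is not named here, and the cause was not tested.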

How the results depend on the processing

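With the deposited values, 66 genes higher and 13 lower passed at an adjusted p (limma), 1650 higher and 64 lower at an unadjusted p, and the median difference was 0.26; the prior degrees of freedom were then infinite. Centring gave 169 higher at an unadjusted p, the 4 oncogene arrays alone 441, all probe sets 659, and a filter on low levels 165 higher and 292 lower. Leaving out 1 array gave 192 to 441 higher and 249 to 740 lower. Without BCR-ABL-Blk replicate 1, 2 genes lower passed at an adjusted p of 0.0403 (limma), Khdc1a (-2.92) and 3830403N18Rik; leaving out any other array gave 0. With the replicate block, 343 genes were higher and 531 lower at an unadjusted p and 0 passed (smallest adjusted p 0.999, limma). The replicate numbers are only shared numbers, since the correlation of the replicate differences was 0.03 over 2 pairs. The share of higher genes among those at an unadjusted p was 37.1%, and it was 96.3% as deposited, 26.5% centred, 48.3% over all probe sets and 49.6% without BCR-ABL-Blk replicate 2.

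Of 128 named genes, 107 kept their sign under every alternative run for them (15, or 14 for genes that the level filter removed) and 21 turned in at least 1. As deposited, where the median difference of all genes is 0.26, the turned differences were Pax5 0.17, Myc 0.07, Cdkn1b 0.17, Src 0.16, Ms4a1 0.04, Ldha 0.025, Mcl1 0.085, Bcl2l2 0.18, Apaf1 0.13, Plk2 0.11, Aen 0.01, Itgb3 0.11, Cxcl12 0.09 and Cox7b 0.015. Centring turned Taf1d (-0.02), Eif4a1 (-0.13), Rrm1 (-0.025) and Cd34 (-0.015), and the mean of probe sets turned Cdkn1b (0.16). Leave-one-out turned Pax5 (0.23), Ebf1 (0.39) and Eif4a1 (-0.0045) without BCR-ABL replicate 2. It turned Pax5 (0.11), Ebf1 (0.37) and Cdkn1b (0.12) without BCR-ABL-Blk replicate 2, and Cdkn1b (0.069), Cd74 (-0.064) and H2-Ab1 (-0.019) without BCR-ABL replicate 1. Over arrays left out, Pax5 ranged from -0.445 to 0.23, Ebf1 from -0.946 to 0.39, Cdkn1b from -0.203 to 0.12, Cd74 from -0.064 to 0.882 and H2-Ab1 from -0.019 to 0.334. The cause of these turns was not tested. With an array left out, a group of 1 array is assumed to vary like the others. Signal over background was not measured.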
